A study of Mus musculus with 6 samples.

Results

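Interleukins (IL) are the small secreted proteins by which lymphocytes, macrophages, epithelial cells and other cells of a tissue instruct one another. Most act through a receptor of paired chains, several of which are shared between interleukins. Here the interleukin and interleukin receptor genes were read in whole mouse lung, as every gene whose only annotated symbol begins with Il and a digit. This gave 57 genes of 16537 measured, and each had a single probe set. They comprised 31 receptor chains, 22 ligands or ligand subunits, 3 antagonists or decoys and 1 antisense transcript, Il1bos. In the lung, interleukins released by damaged epithelium and by resident macrophages call in and activate lymphocytes and granulocytes, and the receptors on those cells set which of the signals they can hear.

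RNA was taken from whole lung of 3 wild-type samples and 3 samples labelled Falcor-null. Falcor is a long non-coding RNA gene that lies beside the gene of the epithelial transcription factor Foxa2, and the labels describe the second group as null for it. All 6 samples had been exposed to naphthalene, which club cells of the airway convert to a toxic metabolite, and all carried the strain label CD1_C57Bl6_mix. By their labels, wild type replicates 1, 2 and 3 were taken 28, 29 and 30 days after naphthalene, against 31, 32 and 33 days for Falcor-null replicates 1, 2 and 3. These days rise by 1 from each sample to the next, and whether they are the true sampling days is not known here. As labelled, day and genotype cannot be told apart. Neither the naphthalene dose, the age of the mice nor the nature of the Falcor allele was in the labels. Nor did the labels tie each sample to an animal of its own, so that p-values here reflect the spread among 6 samples that may in part be technical.

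Values are log2 signals per probe set, and a difference is the mean of the arrays labelled Falcor-null minus the wild-type mean on that scale. Genes were tested with limma, a linear model with variance shared across genes, and a gene passed when its p, adjusted over all 16537 genes by the Benjamini-Hochberg method, was under 0.05. The targeted gene, listed as 9030622O22Rik, read 4.69, 5.01 and 5.45 in wild type and 6.82, 6.34 and 6.32 under the Falcor-null label, 2.72-fold higher on the latter (limma adjusted p 0.0423). This goes against the label. The position of the probe set relative to the allele is unknown here, so all directions below rest on the labels and are given for arrays labelled Falcor-null. The lung markers Sftpc and Scgb1a1 read about 13.6 on all 6 arrays.

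Of the 57 genes, 2 passed the test, both lower on the arrays labelled Falcor-null: Il23r, a receptor chain for IL-23, and Il1r2, a decoy receptor for IL-1. That is 3.51% of the genes, where 0.556% of all genes passed in either direction and 0.460% passed as lower. Both Il23r and Il1r2 had means below the 30th percentile of genes (5.95), and their signal over background is not known here. At an unadjusted p of 0.05, 19 of the 57 (33.3%) were lower and 0 were higher, against 7.65% and 6.11% of all genes. In 17 of the 57 every array labelled Falcor-null lay below every wild-type array, and in 0 did every one lie above (background 10.6% and 8.96%). The median log2 difference over the 57 genes was -0.085, with a range from -1.24 to 0.24, beside a median of 0.00 over all genes, and 39 of the 57 had a difference below 0, where 49.2% of all genes did (35 with the arrays centred on their medians). No difference among the 18 positive ones exceeded 0.24.

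The calls were mostly lost when 1 array was left out. Neither of the 2 genes passed when wild type replicate 2 or 3, or Falcor-null replicate 1 or 2, was dropped. Of all 16537 genes, 26, 49, 24 and 18 passed in these fits, against 92 with every array. In these fits 17, 14, 15 and 15 of the 57 genes were lower at an unadjusted p under 0.05 in limma. At that threshold 2, 0, 0 and 0 of them were higher. Without wild type replicate 1 Il1r2 was the 1 gene to pass. With Falcor-null replicate 3 dropped Il7r, the IL-7 receptor, passed and Il23r and Il1r2 did not.

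**Figure D1:**
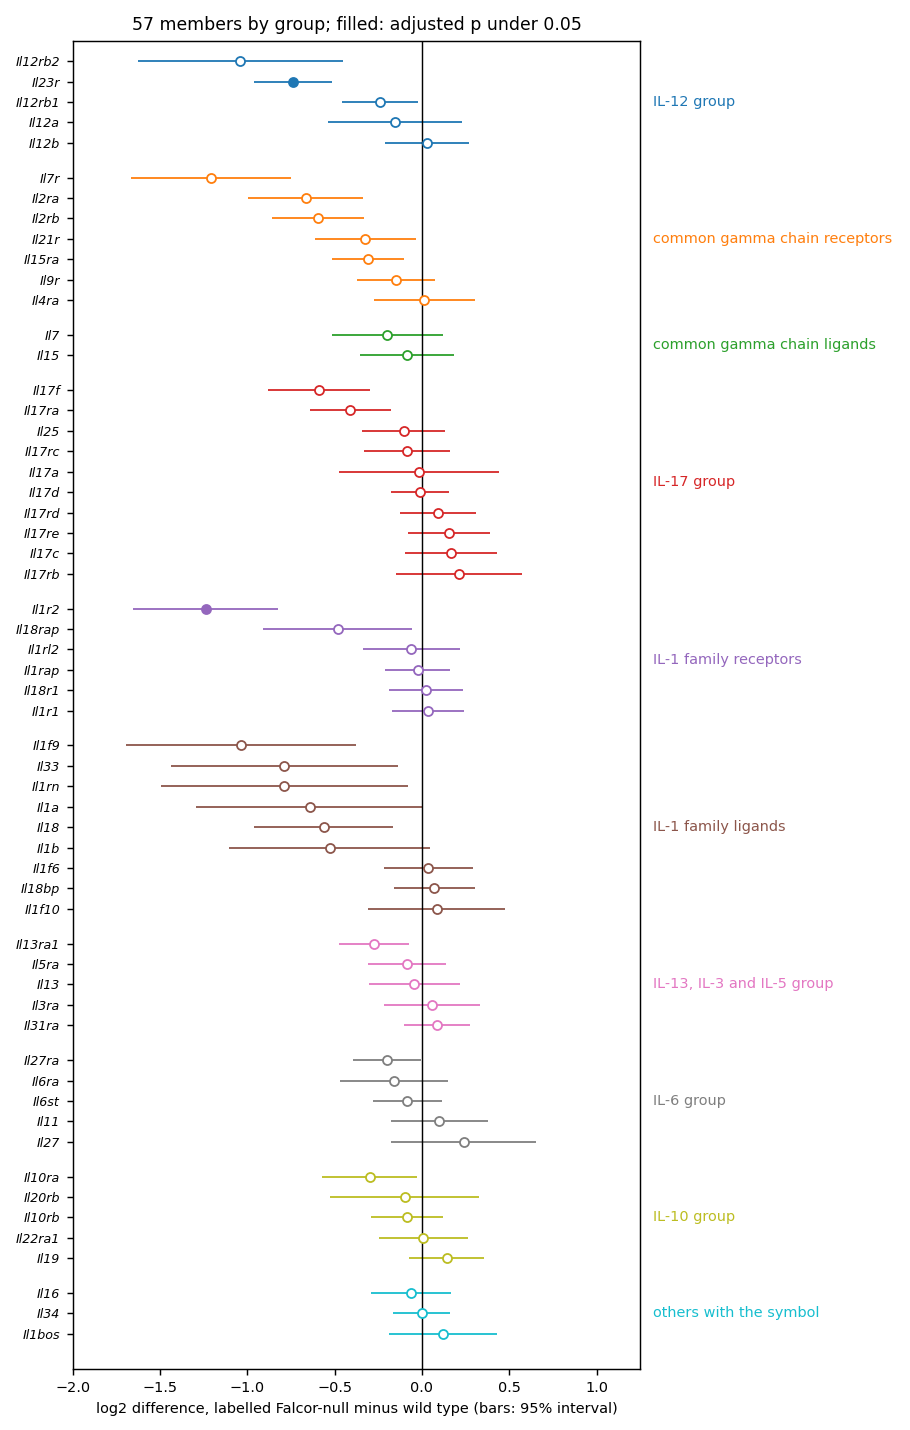
Log2 difference (labelled Falcor-null minus wild type, x axis) with its 95% interval for each of the 57 genes, arranged by receptor and ligand group. Filled points passed the test; these are Il23r at -0.74 and Il1r2 at -1.24, and no gene lies above 0.24.

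The promoter sequences of the genes at the low end are shown first, for the 4 receptor genes on which the description turns. Il23r and Il1r2 are shown since they passed, Il7r since it had the next smallest p, and Il12rb2 since it is the chromosomal neighbour of Il23r. Each sequence is the 250 bases before the annotated transcript start in RefSeq, build GRCm38.p6, read 5′ to 3′ on the strand of the gene. They lie at chr6:67491856-67492105, minus strand for Il23r, chr1:40085843-40086092, plus strand for Il1r2, chr15:9529877-9530126, minus strand for Il7r and chr6:67376189-67376438, minus strand for Il12rb2. Capitals mark a match to TTCNNNGAA, the GAS motif to which STAT factors, the transcription factors downstream of most interleukin receptors, can bind.
Il23r: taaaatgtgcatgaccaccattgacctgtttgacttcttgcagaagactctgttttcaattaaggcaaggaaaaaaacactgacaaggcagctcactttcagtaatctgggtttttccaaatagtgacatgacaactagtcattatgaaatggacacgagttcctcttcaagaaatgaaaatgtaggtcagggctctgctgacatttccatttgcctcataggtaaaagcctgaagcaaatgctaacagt
Il1r2: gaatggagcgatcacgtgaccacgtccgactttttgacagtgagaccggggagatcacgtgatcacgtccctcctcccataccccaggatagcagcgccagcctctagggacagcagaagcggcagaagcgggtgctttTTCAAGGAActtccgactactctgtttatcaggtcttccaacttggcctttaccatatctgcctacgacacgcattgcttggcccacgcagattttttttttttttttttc
Il7r: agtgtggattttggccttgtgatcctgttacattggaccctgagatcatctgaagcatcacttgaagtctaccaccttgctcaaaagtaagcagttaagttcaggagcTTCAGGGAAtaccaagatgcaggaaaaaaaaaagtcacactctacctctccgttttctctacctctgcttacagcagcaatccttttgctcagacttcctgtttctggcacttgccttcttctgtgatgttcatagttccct
Il12rb2: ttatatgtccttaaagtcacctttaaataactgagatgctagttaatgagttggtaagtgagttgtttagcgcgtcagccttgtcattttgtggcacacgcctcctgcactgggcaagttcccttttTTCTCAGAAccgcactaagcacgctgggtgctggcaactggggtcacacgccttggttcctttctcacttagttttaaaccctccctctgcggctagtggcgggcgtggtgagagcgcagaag
Il1r2 held the motif from 111 to 103 bases before the start (TTCAAGGAA), Il7r from 142 to 134 bases before it (TTCAGGGAA) and Il12rb2 from 123 to 115 bases before it (TTCTCAGAA), while these letters were not in the window of Il23r. A promoter was listed for 45 of the 57 genes, 56 promoters in all, and 8 of the 56 (14.3%) held TTCNNNGAA on either strand (the motif is its own reverse complement), against 7.02% of the 32851 promoters in the table. The AP-1 motif TGANTCA was in 9 of the 56 (16.1%, against 6.75%) and the NF-kB consensus in 4 (7.14%, against 3.90%). Among the 14 genes with an unadjusted p under 0.05 and a listed promoter, 4 held the GAS motif, Il1f9 being the other, and 4 of the 31 remaining genes did. The AP-1 motif was in 2 of the 14 and 7 of the 31, and the NF-kB consensus in 1 and 3. A match describes letters in a window and says nothing about binding in these lungs.

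The receptors for IL-12 and IL-23 share the chain Il12rb1, which pairs with Il12rb2 for IL-12 and with Il23r for IL-23, the cytokine that maintains T cells producing IL-17. Il23r read 6.02, 5.85 and 6.12 in wild type and 5.18, 5.26 and 5.33 under the Falcor-null label. The groups stood apart by more than the spread within either, and Il23r fell 1.67-fold (log2 difference -0.74, SE 0.10, limma adjusted p 0.0277). Il23r lost its call whichever single array was left out, with differences from -0.81 to -0.68 and adjusted p-values from 0.0518 to 0.103.

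Il12rb2 read 5.92, 6.77 and 5.70 in wild type and 5.0, 5.13 and 5.15 under the Falcor-null label. Wild type replicate 2 stood well above the other two wild-type arrays and the groups did not overlap. The log2 difference of -1.04 (SE 0.25) did not pass (limma adjusted p 0.133), and without wild type replicate 2 it was -0.72. The shared chain Il12rb1 read 5.31, 5.23 and 5.50 against 5.13, 5.03 and 5.16, a log2 difference of -0.24 (limma adjusted p 0.317) with no overlap of the groups. The ligand subunits Il12a and Il12b, the latter shared by IL-12 and IL-23, differed by -0.15 (95% interval -0.54 to 0.23) and 0.03 (-0.21 to 0.27). Subtracting Il12rb1 from Il23r within each array gave 0.71, 0.62 and 0.62 for wild type and 0.05, 0.23 and 0.18 for the arrays labelled Falcor-null, a change of -0.50 without overlap. Such pairs were chosen after values were seen and carry no test. The IL-23 subunit Il23a was not analysed here. All 5 genes of this group had a mean below the 30th percentile of genes (5.95), and their signal over background is not known here.

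Through receptors that use the common gamma chain, IL-2, IL-4, IL-7, IL-9, IL-15 and IL-21 sustain lymphocytes. Of the 7 members of this receptor group, 5 were lower without overlap on the arrays labelled Falcor-null (background 10.6%). That was the most of any receptor or ligand group among the 57 genes. However, 0 of the 7 passed, and 5 were lower at an unadjusted p under 0.05 in limma (background 7.65%). The gamma chain gene itself, Il2rg, was not analysed here. Il7r, on which naive and memory T cells and innate lymphoid cells depend for survival, read 8.72, 9.12 and 8.75 in wild type and 7.45, 7.44 and 8.09 under the Falcor-null label. Falcor-null replicate 3 lay nearest to wild type. The log2 difference was -1.21 (SE 0.20, 2.31-fold), with an adjusted p in limma of 0.0579, and of 0.0278 without Falcor-null replicate 3. It passed in 5 of the 16 alternatives, the others being an intensity trend in the variance (adjusted p 0.0342), array weights (0.0450) and the filters on genes below the 30th percentile (0.0462) or the median (0.0413). It did not pass with the replicate block (0.119), centring (0.0601), a second quantile normalization (0.0685) or robust variance (0.0607), with probe sets averaged (0.0588) or all tested (0.0633), nor in the other 5 fits without a single array (0.0914 to 0.176).

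Il2rb, the signalling chain shared by IL-2 and IL-15, read 6.86, 6.79 and 6.94 in wild type and 6.07, 6.47 and 6.27 under the Falcor-null label. Its wild-type values were tight (SD 0.07) and all lay above the other group, with a log2 difference of -0.60 (SE 0.11, limma adjusted p 0.0817). Il2ra, the chain that gives the IL-2 receptor its high affinity and that regulatory and activated T cells carry, read 7.06, 7.04 and 7.48 against 6.41, 6.45 and 6.71. Its groups did not overlap and its log2 difference was -0.67 (SE 0.14, limma adjusted p 0.103). Il15ra, which presents IL-15 to neighbouring cells, read 7.12, 6.90 and 7.12 against 6.69, 6.76 and 6.75, a log2 difference of -0.31 (SE 0.09, limma adjusted p 0.190). Its 3 values on the arrays labelled Falcor-null spanned less than their distance from the lowest wild-type value. Il21r, the receptor for IL-21 from helper T cells, read 5.82, 5.69 and 5.87 against 5.68, 5.22 and 5.51. The groups were apart by a narrow margin, with a log2 difference of -0.32 (SE 0.12, limma adjusted p 0.309), or -0.20 without Falcor-null replicate 2.

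The remaining 2 chains were nearer to 0. Il9r, the IL-9 receptor, differed by -0.15 (95% interval -0.37 to 0.08), and Il4ra, the chain common to the receptors for IL-4 and IL-13, by 0.01 (-0.28 to 0.30). The 2 measured ligands of this family also lay near 0. Il7 read 5.08, 5.04 and 4.63 in wild type and 4.87, 4.62 and 4.66 under the Falcor-null label, a log2 difference of -0.20 (95% interval -0.52 to 0.12). Il15 read 6.56, 6.94 and 6.74 against 6.72, 6.53 and 6.74 and differed by -0.09 (-0.36 to 0.19). Both genes overlapped between the groups. Set against its ligand within each array, Il7r minus Il7 was 3.64, 4.08 and 4.12 in wild type. Under the Falcor-null label it was 2.58, 2.82 and 3.43, a change of -1.01 without overlap. The mean of Il7 lay below the 30th percentile of genes. Il2rb minus Il15 changed by -0.51 and Il21r minus Il4ra by -0.34, both with overlap.

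**Figure D2:**
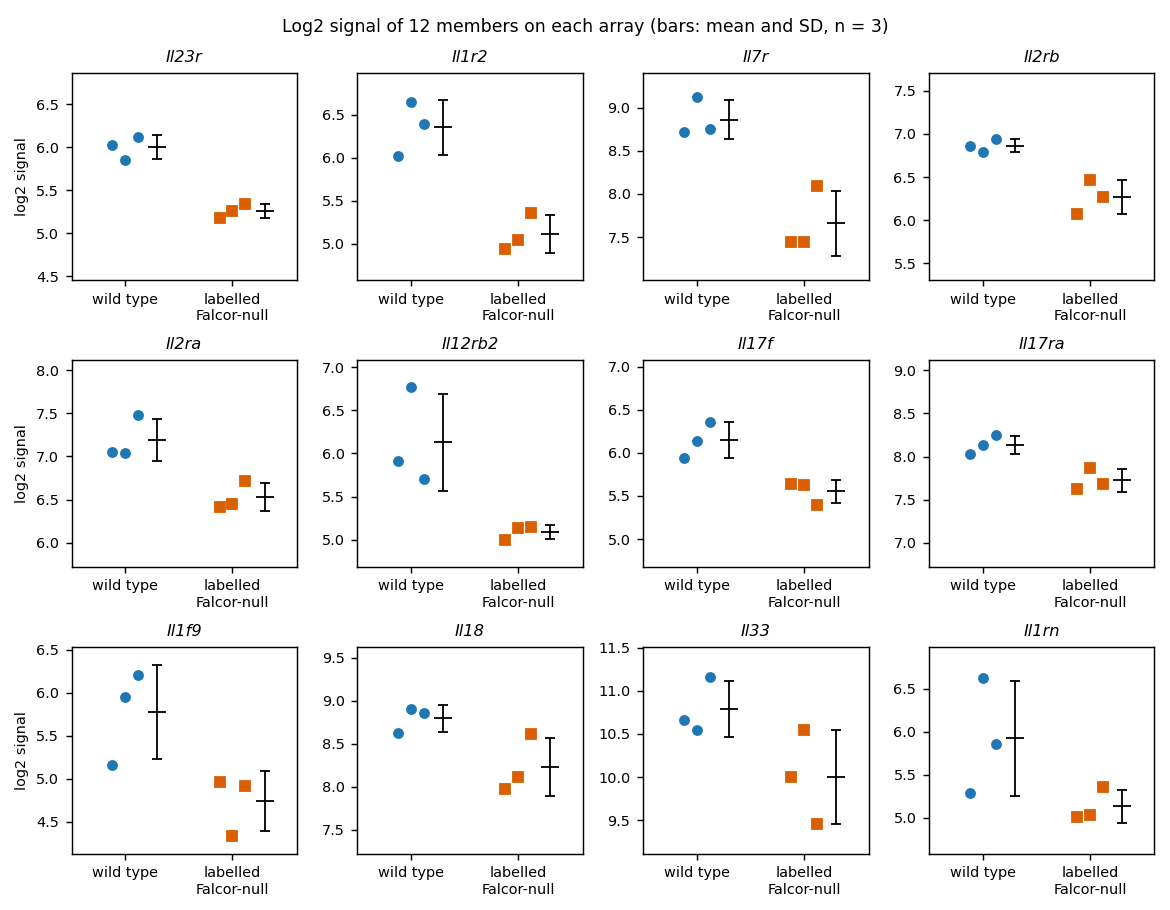
Log2 signal (y axis, every panel spanning the same range) of 12 genes on each of the 3 wild-type arrays (circles) and the 3 arrays labelled Falcor-null (squares), in replicate order, with bars for the mean and SD (n = 3). The 12 were picked from the 19 genes with an unadjusted p under 0.05 in limma, so separation of the groups was favoured by the choice. The groups do not overlap in 10 of the 12 panels, and Il33 and Il1rn overlap. Of all 57 genes 17 were lower without overlap (background 10.6%).

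T cell markers are given beside these receptors. As background for the counts in this paragraph, 0.460% of all genes passed as lower and 0.0968% as higher. At an unadjusted p under 0.05 in limma, 7.65% of all genes were lower and 6.11% higher. Of 14 listed T cell genes 13 were measured, all 13 had differences below 0 and 4 passed, Cd3e, Cd4, Lat and Cd3g. The mean log2 signal of the 13 ran from 6.66 to 6.90 on the wild-type arrays and from 6.09 to 6.30 on the arrays labelled Falcor-null, a difference of -0.63. Of the 9 listed genes of innate lymphoid and NK cells 6 were measured, 5 were below 0 and 0 passed, with 2 at an unadjusted p under 0.05 in limma and a mean difference of -0.24. The lists of other cell types went in both directions. Of 10 listed B cell genes 9 were measured, all 9 had differences below 0 and 2 passed, Ighm and Cd79a, with a mean difference of -0.78. Of 9 measured dendritic cell genes 7 were below 0 and 1 passed, Bst2. By contrast all 8 fibroblast and smooth muscle markers and 7 of 8 endothelial markers had differences above 0, with means of 0.23 and 0.20, and 0 of either passed (3 and 2 were higher at an unadjusted p under 0.05 in limma). Of 7 measured airway epithelial markers 3 were below 0, and of 4 mast cell, basophil and eosinophil markers 2 were, with 0 passing and 1 lower in each list at an unadjusted p under 0.05 in limma. The part of any of these cell types in the receptor values was not tested. In RNA from whole lung, fewer cells of a type and less RNA per cell cannot be told apart.

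The IL-17 family held differences in both directions. Its members IL-17A and IL-17F are made by T cells and innate lymphoid cells and read mainly by epithelium and fibroblasts. Il17f read 5.94, 6.14 and 6.35 in wild type and 5.64, 5.63 and 5.40 under the Falcor-null label. The groups did not overlap and the log2 difference was -0.59 (SE 0.12, limma adjusted p 0.101). Its neighbour and dimer partner Il17a read 4.36, 5.07 and 4.85 against 4.50, 4.96 and 4.77, a log2 difference of -0.02 with a 95% interval from -0.47 to 0.44. Il17f minus Il17a within an array was 1.58, 1.07 and 1.51 in wild type and 1.14, 0.67 and 0.63 under the Falcor-null label, where wild type replicate 2 lay within the other group's range.

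Both ligands act through Il17ra paired with Il17rc. Il17ra read 8.03, 8.13 and 8.25 in wild type and 7.62, 7.87 and 7.68 under the Falcor-null label, without overlap, a log2 difference of -0.41 (SE 0.10, limma adjusted p 0.133). Il17rc read 7.94, 8.07 and 8.10 against 7.98, 8.11 and 7.76 and differed by -0.08 (95% interval -0.33 to 0.16), and the change of Il17ra relative to Il17rc was -0.33, without overlap. The others overlapped between the groups: Il17rb, the receptor for IL-25, at 0.21 (95% interval -0.15 to 0.57), Il25 itself at -0.11, Il17c, an epithelial ligand, at 0.17 and its receptor Il17re at 0.15, Il17rd at 0.09 and Il17d at -0.01. Of the 10 genes in this family 6 were below 0, and 4 with the arrays centred on their medians, when Il17a and Il17d turned positive.

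IL-1 itself is met by a signalling receptor, Il1r1 with its accessory chain Il1rap, by the decoy Il1r2, which binds the ligand without signalling, and by the antagonist Il1rn, which occupies Il1r1. Il1r2 read 6.02, 6.65 and 6.40 in wild type and 4.94, 5.05 and 5.36 under the Falcor-null label. The groups did not overlap, and Il1r2 fell 2.36-fold (log2 difference -1.24, SE 0.18, limma adjusted p 0.0383). Its mean lay below the 30th percentile of genes. Its call held without wild type replicate 1 (adjusted p 0.0373). It was lost when any of the other 5 arrays was dropped, at differences from -1.36 to -1.09. With replicate numbers as a block its adjusted p was 0.0625, and that of Il23r 0.0780.

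Il1r1, which lies next to Il1r2 on the chromosome, read 8.68, 8.80 and 8.93 against 8.80, 8.91 and 8.82. Its log2 difference was 0.03, with a 95% interval from -0.17 to 0.24. Il1r2 minus Il1r1 was -2.66, -2.15 and -2.54 in wild type and -3.86, -3.86 and -3.46 under the Falcor-null label, a change of -1.27 without overlap. The accessory chain Il1rap differed by -0.03 (-0.21 to 0.16). Il1rl2, the receptor for the IL-36 ligands, differed by -0.06 (-0.34 to 0.22).

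The antagonist Il1rn read 5.29, 6.62 and 5.86 in wild type and 5.02, 5.04 and 5.36 under the Falcor-null label, and had the largest wild-type spread of the 57 genes (SD 0.67). Wild type replicate 1 lay within the other group's range, and the log2 difference was -0.79 (SE 0.30, limma adjusted p 0.312), or -0.44 without wild type replicate 2. Il1a, the IL-1 held in epithelial cells and macrophages until injury, read 6.56, 7.77 and 6.97 against 6.39, 6.35 and 6.62, and Il1b, released by inflammasome-activated myeloid cells, read 7.80, 8.04 and 8.72 against 7.68, 7.94 and 7.36. Both overlapped between the groups. Their log2 differences were -0.64 (95% interval -1.29 to 0.01) and -0.53 (-1.10 to 0.05), with limma adjusted p-values of 0.368 and 0.404. Il1a differed by -0.30 when wild type replicate 2 was dropped, and Il1b by -0.26 when wild type replicate 3 was. Il1bos, annotated as antisense to Il1b, read 4.56, 4.99 and 4.58 against 4.81, 4.96 and 4.73 and differed by 0.12 (-0.19 to 0.43), and whether its probe set and that of Il1b read separate strands is not known here.

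Il1f9, which encodes IL-36 gamma of epithelium and macrophages, read 5.16, 5.95 and 6.21 in wild type and 4.96, 4.34 and 4.91 under the Falcor-null label. Its groups did not overlap, although wild type replicate 1 lay closer to the other group than to its own, and the log2 difference was -1.04 (SE 0.28, limma adjusted p 0.175). The related ligands Il1f6 and Il1f10 differed by 0.04 and 0.08, both with overlap.

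IL-18, matured by the inflammasome and acting on T and NK cells, is bound by Il18r1, signals once Il18rap joins, and is neutralised by Il18bp. Il18 read 8.62, 8.91 and 8.86 in wild type and 7.97, 8.12 and 8.61 under the Falcor-null label. Falcor-null replicate 3 lay just below wild type replicate 1, and the log2 difference was -0.56 (SE 0.17, limma adjusted p 0.214). Without Falcor-null replicate 3 it was -0.75, with an adjusted p of 0.0783. Il18rap read 6.11, 5.82 and 6.52 against 5.77, 5.80 and 5.44, without overlap by a margin of hundredths, a log2 difference of -0.48 (SE 0.18, limma adjusted p 0.304), or -0.30 without wild type replicate 3. Il18r1 and Il18bp differed by 0.02 (95% interval -0.19 to 0.23) and 0.07 (-0.16 to 0.30). Relative to Il18r1 the change of Il18rap was -0.51, where the nearest ratios, -3.904 on wild type replicate 2 and -3.905 on Falcor-null replicate 1, nearly met.

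Il33, an alarmin stored in nuclei of alveolar epithelium and released on damage, read 10.66, 10.55 and 11.17 in wild type and 9.996, 10.55 and 9.46 under the Falcor-null label. Falcor-null replicate 2 reached the value of wild type replicate 2, and the log2 difference was -0.79 (SE 0.28, limma adjusted p 0.272). Dropping Falcor-null replicate 3 made it -0.52, and dropping Falcor-null replicate 2 made it -1.06. Its receptor Il1rl1 was not analysed here. The 11 alveolar epithelial markers had a mean log2 signal of 11.5 on each wild-type array and 11.5 to 11.6 on the arrays labelled Falcor-null. Of the 11, 4 were below 0 and 7 above, and 0 passed. At an unadjusted p under 0.05 in limma 1 (Ager) was higher (background 6.11%). Without overlap 4 (Ager, Rtkn2, Pdpn and Hopx) were higher (background 8.96%).

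Myeloid markers are given beside the IL-1 family, in which Il1r2 was the 1 gene to pass. As background, 0.460% of all genes passed as lower and 7.65% were lower at an unadjusted p under 0.05 in limma. Of 11 listed neutrophil genes 9 were measured, 8 were below 0 and 0 passed, with 4 at an unadjusted p under 0.05 in limma. Their mean log2 signal was 7.20, 7.23 and 8.25 on wild type replicates 1, 2 and 3, and 6.47 to 6.83 on the arrays labelled Falcor-null. The neutrophil list was highest on wild type replicate 3, as were Il1b, Il33, Il1f9, Il18rap, Il1r1 and Il1f6. Within that list Ltf, the gene above 0, had its lowest value there (6.95). The alveolar macrophage list was highest on wild type replicate 2, as were Il1r2, Il1rn, Il1a, Il18, Il1rap and Il1rl2. In the same family, Il18bp and Il1f10 were highest on wild type replicate 1 and Il18r1 on Falcor-null replicate 2. All 10 measured alveolar macrophage markers of 12 listed were below 0 and 0 passed (6 at an unadjusted p under 0.05 in limma), with means from 9.0 to 9.60 in wild type and from 8.39 to 9.0 on the arrays labelled Falcor-null. Of the 9 monocyte and interstitial macrophage markers 8 were below 0 and 0 passed (6 at an unadjusted p under 0.05 in limma), with means from 8.15 to 8.32 and from 7.75 to 7.90. Their part in the IL-1 family values was not tested.

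Neighbours on a chromosome had like differences in some places and unlike ones in others, which is a description with no test. Taking members separated by at most 2 other protein-coding genes, 23 of the 56 genes placed in a RefSeq table fell into 9 groups of neighbours. Il12rb2 and Il23r (-1.04 and -0.74), Il2ra and Il15ra (-0.67 and -0.31) and Il1a and Il1b (-0.64 and -0.53) were neighbours with differences of the same sign. Il17a and Il17f were also both below 0, at -0.02 and -0.59. The signs were opposite for Il6st and Il31ra (-0.083 and 0.087), Il17re and Il17rc (0.155 and -0.085) and Il4ra and Il21r (0.012 and -0.324). The run Il1r2, Il1r1, Il1rl2, Il18r1 and Il18rap gave -1.24, 0.03, -0.06, 0.02 and -0.48, the genes at its ends being low and the 3 between them within 0.1 of 0. The run Il1f9, Il1f6, Il1f10 and Il1rn gave -1.04, 0.04, 0.08 and -0.79, again low at the ends.

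**Figure D3:**
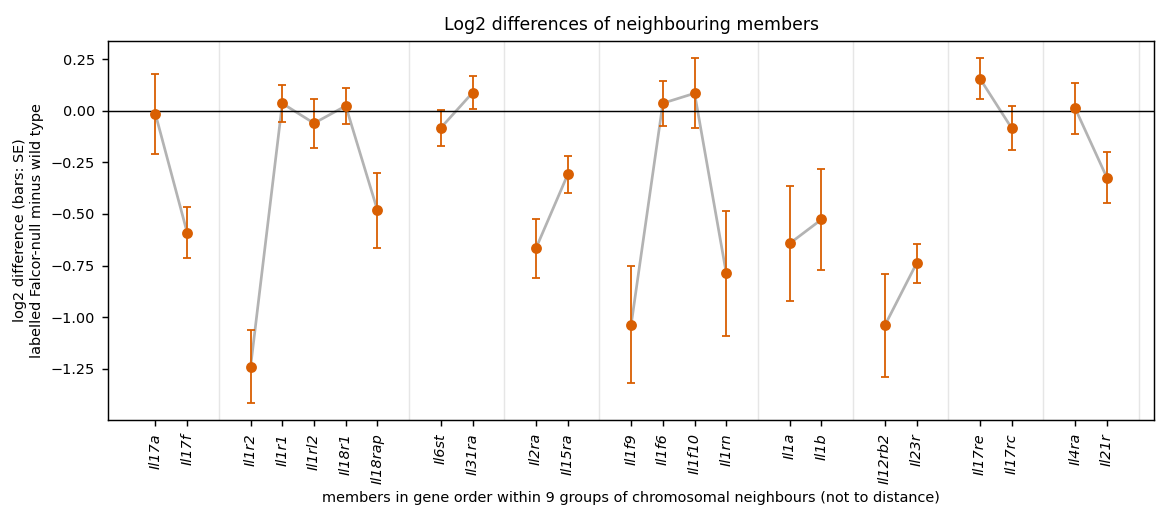
Log2 difference (labelled Falcor-null minus wild type, y axis; bars are the SE) of 23 genes in gene order within 9 groups of chromosomal neighbours; grey lines join neighbours and distances are not to scale. In the run from Il1r2 to Il18rap the end genes are at -1.24 and -0.48 and the 3 between them lie within 0.1 of 0.

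The receptors of type 2 immunity and of the IL-6 and IL-10 families were closer to 0. Il13ra1, which joins Il4ra to form the receptor for IL-13 on epithelium and smooth muscle, read 9.02, 8.98 and 8.99 in wild type and 8.64, 8.87 and 8.67 under the Falcor-null label. The wild-type values spread little (SD 0.02) and the groups did not overlap, with a log2 difference of -0.27 (SE 0.09, limma adjusted p 0.226). Relative to Il4ra the change was -0.29, with overlap. Il13 itself differed by -0.04 (-0.30 to 0.22), and Il5ra, the eosinophil receptor chain, Il3ra and Il31ra by -0.09, 0.06 and 0.09. All but Il3ra and Il13ra1 of these 5 had means below the 30th percentile of genes.

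In the IL-10 family, Il10ra, the ligand-binding chain for IL-10 on leukocytes, read 7.45, 7.24 and 7.23 in wild type and 7.22, 6.86 and 6.94 under the Falcor-null label. The highest of the latter lay just under the lowest wild-type value, and the log2 difference was -0.30 (SE 0.12, limma adjusted p 0.318). Its partner Il10rb, which is also used by IL-22 and the lambda interferons, differed by -0.08 (95% interval -0.29 to 0.12). Il22ra1, the epithelial chain for IL-22, differed by 0.01 (-0.25 to 0.26), Il20rb by -0.10 and the ligand Il19 by 0.14.

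In the IL-6 family, Il27ra, a T cell receptor chain for IL-27, read 7.17, 7.11 and 7.23 in wild type and 7.09, 6.93 and 6.88 under the Falcor-null label. The groups were apart by less than 0.1, with a log2 difference of -0.20 (SE 0.08, limma adjusted p 0.355). Il6st, the signalling chain gp130 common to this family, differed by -0.08 (95% interval -0.28 to 0.12) and Il6ra by -0.16 (-0.47 to 0.15). The ligands Il11 and Il27 differed by 0.10 and 0.24, the latter the highest difference of the 57 with a 95% interval from -0.18 to 0.65. Il16, a T cell attractant, and Il34, a ligand of the macrophage receptor Csf1r, differed by -0.06 and 0.00, the latter within a 95% interval from -0.17 to 0.16.

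Across the arrays, the highest value of a gene fell on wild type replicate 3 in 19 of the 57 genes, on replicate 2 in 13 and on replicate 1 in 11, and on the arrays labelled Falcor-null in 4, 8 and 2. Over all 16537 genes the corresponding numbers were 2266, 2846 and 3283 for wild type replicates 3, 2 and 1, so that replicate 3, which held the highest value least often among the wild-type arrays, held it most often for these genes. The mean over the 57 genes was 6.65, 6.73 and 6.77 on wild type replicates 1, 2 and 3 and 6.48, 6.51 and 6.49 under the Falcor-null label, whereas the mean over all genes was 6.98 to 7.02 on every array. Of the 57 genes 26 had means below the 30th percentile of genes, and 17 of these 26 had differences below 0, where 2016 of the 4961 genes below that percentile did. Il17f, Il1f9, Il1rn, Il18rap and Il21r were among the 26.

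The wider signalling pathway was read from 3 lists of 54 measured genes without the Il symbol. Of the 54, 1 passed as lower and 0 as higher (background 0.460% and 0.0968%), and 43 had a difference below 0 (36 with the arrays centred on their medians), with a median log2 difference of -0.09. The gene that passed was Csf2, the granulocyte-macrophage colony-stimulating factor whose receptor shares its beta chain with the receptors for IL-3 and IL-5 and which alveolar macrophages require. Csf2 read 5.72, 5.97 and 5.97 in wild type and 5.09, 5.26 and 5.06 under the Falcor-null label. The groups did not overlap, and Csf2 fell 1.68-fold (log2 difference -0.75, SE 0.10, limma adjusted p 0.0324). Its mean also lay below the 30th percentile of genes. Of single arrays, its call held only without wild type replicate 1.

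Among the 20 measured partners and relatives 16 were below 0. Csf2rb2, the mouse beta chain particular to the IL-3 receptor, read 7.49, 8.46 and 7.84 against 6.58, 7.01 and 7.18, a log2 difference of -1.01 (SE 0.25, limma adjusted p 0.150). Its groups did not overlap. The common beta chain Csf2rb differed by -0.55 (limma adjusted p 0.445) with overlap. Ebi3, which joins Il27 to form IL-27, read 6.42, 6.43 and 6.30 against 6.08, 5.77 and 6.08, a log2 difference of -0.40 (limma adjusted p 0.163), where Il27 itself was at 0.24.

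Of 22 JAK and STAT factors and their inhibitors, 19 were below 0 and 0 passed, with 3 lower and 1 higher at an unadjusted p under 0.05 in limma (background 7.65% and 6.11%). Of these genes Jak1, Socs7, Ptpn11 and Pias3 changed sign with the arrays centred or normalized again. Ptpn6, the phosphatase that dampens cytokine receptor signalling in blood cells, read 8.92, 9.18 and 9.04 against 8.44, 8.50 and 8.66, a log2 difference of -0.51 (limma adjusted p 0.0854). Its groups did not overlap. Stat4, which transmits IL-12, differed by -0.40 (adjusted p 0.202), and Stat5a, which transmits IL-2 and IL-7, by -0.22 (adjusted p 0.244), both in limma and without overlap. The 1 higher gene of these 4 was Socs5, at 0.31 (limma adjusted p 0.324). The kinases Jak1, Jak2 and Tyk2 differed by -0.02, -0.13 and -0.09. Of 12 genes listed with the adaptors of the IL-1 and IL-17 receptors, 8 were below 0 and 0 passed. The 12 include Traf3ip1 (0.16), which is not such an adaptor. At an unadjusted p under 0.05 in limma 1 was lower, near the background of 7.65%. That gene, Irak3, an inhibitor of the pathway in macrophages, differed by -0.31 (limma adjusted p 0.161), while Myd88 and Traf6 differed by -0.27 and -0.12 with overlap.

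**Figure D4:**
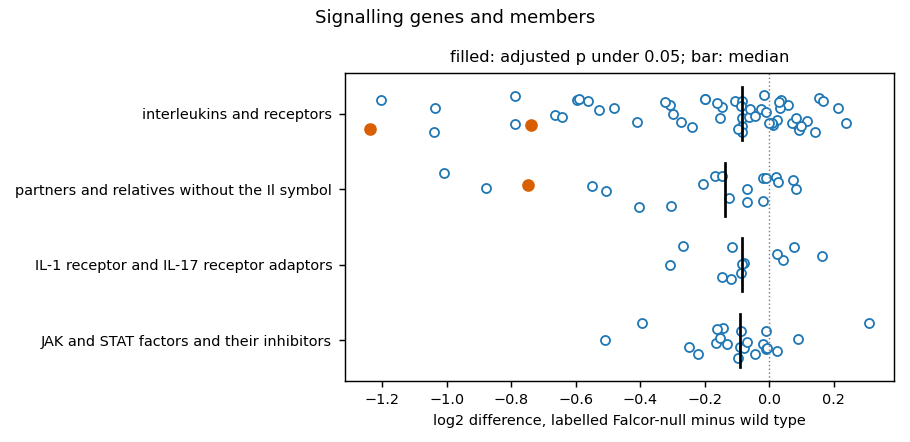
Log2 difference (labelled Falcor-null minus wild type, x axis) of the 57 interleukin and receptor genes and of 3 lists of signalling genes; vertical scatter within a row is for legibility, bars are medians and filled points passed the test. Csf2 at -0.75 is the 1 filled point outside the interleukin row, and the medians lie between -0.14 and -0.085.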

How the data were processed

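Whole-lung RNA from 3 wild-type samples and 3 labelled Falcor-null was measured on biotin-labelled 1-colour arrays, per the labels. The table deposited holds log2 values summarised by probe set. Among tools, oligo, RMA and limma are named (no versions) in the submitters' processing notes. The lowest value was 3.19 to 3.22 on the wild-type arrays and 2.09 to 2.42 on the others, so the distributions differ at the low end. The build and any filter on rows are not given in the sources used here. Detection calls were not used. Of 24173 probe sets, 17476 carried 1 symbol in the platform annotation (the 1308 with several were left out). The one with the highest mean stood for each of 16537 genes.

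Falcor-null was compared with wild type by limma 3.58.1 (lmFit, eBayes; R 4.3.3) without covariates, two-sided. The 95% intervals of genes come from the same fit. The number of arrays limits the precision. Members named with every array's value are those with an unadjusted p under 0.05, the smallest p in each group, and part of their partners; other partners and members are given by their differences. The partner pairs compared within arrays, Socs5, Csf2rb, Jak1, Jak2 and Tyk2 were chosen after values were seen. The members and lists were chosen with earlier results of these data known. The test was tested on simulated data. Promoters come from RefSeq (GRCm38.p6). Figures used matplotlib 3.10.9.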

Additional observations from a re-analysis of the deposited data

How the results depend on the processing

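The median difference of the 57 genes stayed negative in every alternative run, from -0.12 to -0.06, and the 19 genes with an unadjusted p under 0.05 kept their sign in all alternatives in which they were tested. The number of interleukin and receptor genes passing, all of them lower, was 2. It was 0 with the replicate block (18 lower at an unadjusted p under 0.05 in limma), 1 with genes below the 30th percentile or below the median left out, where Il23r and Il1r2 were no longer tested and Il7r passed, and 4 at an adjusted p under 0.1, where Il7r and Il2rb joined. Leaving out each array in turn gave 0 to 1. The number of signalling genes passing, 1, was 0 with the replicate block (10 lower at an unadjusted p under 0.05 in limma) and 0 with either filter on dim genes (8 and 7), 2 at an adjusted p under 0.1, where Ptpn6 joined Csf2, and 0 to 1 with each array left out. Centring, a second quantile normalization, an intensity trend, robust variance, array weights, averaging probe sets and testing every probe set gave 2 or 3 interleukin genes and 1 signalling gene. Replicate numbers are shared in name only: deviations of same-numbered arrays correlated at 0.02, 0.00 and -0.08 across genes. The number of all genes passing was 92 with and 18 to 89 without single arrays, 32 with the replicate block, 131 with an intensity trend and 280 at an adjusted p under 0.1.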

Other observations

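A probe set annotated to Nup62, Il4i1 and Il4i1b together, and therefore outside the genes above, read 6.56, 6.56 and 6.55 in wild type and 6.31, 6.43 and 6.39 under the Falcor-null label. The log2 difference was -0.18 (SE 0.08, limma adjusted p 0.379 over all probe sets), without overlap, and the signal cannot be assigned to any 1 of the 3 genes. Il4i1 encodes an amino acid oxidase of B cells and macrophages. Among the 57 genes, 38 spread more on the wild-type arrays than on the arrays labelled Falcor-null, with a median SD of 0.15 against 0.13, where the medians over all genes were 0.11 in both groups.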
